A study of Mus musculus with 4 samples.

Results

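The reads of 7 mature miRNAs that have been reported to repress the amyloid precursor protein (APP) or the β-secretase BACE1 were examined in small RNA libraries of the mouse brain cortex. They were miR-101a-3p, miR-101b-3p and miR-153-3p, reported for APP, and miR-298-5p, miR-328-3p, miR-186-5p and miR-339-5p, reported for BACE1. They were taken by name from the 942 mature miRNAs counted, all 7 had reads in every library, and all 7 passed the filter on low counts of the test over mice. None of the 7 was called different between AD and WT mice by any test over the 4 mice or in either sibling pair, and 6 of the 7 stood at between 382 and 3139 reads per 1000000 miRNA reads (RPM), while miR-339-5p stood at about 10 RPM.

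Cortex was taken at 9 months of age from 2 wild-type mice (WT1 and WT2) and 2 APPswe/PS1deltaE9 mice (APP3 and APP4), here called AD mice, all of the B6C3 strain. The AD genotype adds APP695 of mixed mouse and human sequence with the Swedish mutation, and human presenilin 1 without exon 9. Expression of either transgene is driven in neurons of the brain. By the study's methods APP4 is a sibling of WT1, the first pair, and APP3 of WT2, the second pair, which makes 2 pairs. Each genotype was thus represented by 2 mice, for which an exact permutation test of 1 value cannot give a p below 0.333, and the tissue was a whole cortex, in which fewer cells of a type and less miRNA per cell cannot be told apart.

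APP is cut first by BACE1 and then by γ-secretase, whose catalytic subunit is a presenilin, and the product is the amyloid β peptide that forms plaques. A mature miRNA is held by an Argonaute protein and pairs mainly through its seed, the bases from the second to the eighth, with sites in the 3′ UTR of an mRNA, which lowers the stability or translation of that mRNA. miRNAs that pair with App or Bace1 mRNA have therefore been studied as controls on amyloid β production in neurons.

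The mature sequences of 6 of the 7 miRNAs were found in the RefSeq annotation of GRCm38.p6, and they are shown to make clear that the set holds no common seed. All are written 5′ to 3′ with the seed (bases 2 to 8) in capitals.
miR-101a-3p: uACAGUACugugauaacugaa
miR-101b-3p: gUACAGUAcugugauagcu
miR-153-3p: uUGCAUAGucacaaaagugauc
miR-298-5p: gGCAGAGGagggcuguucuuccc
miR-186-5p: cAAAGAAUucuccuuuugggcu
miR-339-5p: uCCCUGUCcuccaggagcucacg
miR-328-3p is named only. None of the 6 shared bases 2 to 8 with another mature miRNA of that annotation. On bases 2 to 7, miR-101a-3p matched miR-144-3p, miR-101b-3p matched miR-582-5p, and miR-153-3p matched miR-448-3p and miR-6335.

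The members of the miR-101 family are shown side by side because their reads are hard to separate. miR-101b-3p starts 1 base before the position at which miR-101a-3p starts, and over the 18 bases that overlap 17 were identical, the difference being A16G (counted from the 5′ end of miR-101a-3p, miR-101a-3p first). That shift of 1 base also moves the seed by 1 base. Another member, miR-101c, lies wholly within miR-101a-3p.
miR-101a-3p: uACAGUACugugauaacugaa
miR-101b-3p: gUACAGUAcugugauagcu
miR-101c: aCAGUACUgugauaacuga
The study's methods give up to 2 mismatches and 2 changed bases at each end for counting tags with the CLC workbench, and also state that no mismatch was accepted for miRBase. In each library the miRNA reads counted outnumber the reads that the study lists as perfect matches to miRBase. The counts thus include reads with mismatches, and the split of reads among these 3 is therefore uncertain.

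The hairpins lie on 7 chromosomes in GRCm38 (GENCODE M21). Mir101a is in an exon of the lincRNA E130102H24Rik on the same strand (chr4:101346945-101347027, minus strand). Mir101b is in an intron of Rcl1 (chr19:29135279-29135375, plus strand). Mir153 is in an intron of Ptprn2, a gene of dense-core vesicles (chr12:117250817-117250885, plus strand). Among the hairpins of the BACE1 group, Mir186 is in an intron of Zranb2 (chr3:157544279-157544349, plus strand) and Mir339 in an intron of 3110082I17Rik (chr5:139369650-139369745, minus strand). Mir298 is intergenic (chr2:174267504-174267585, minus strand), with 378 bases between it and Mir296. Mir328 lies opposite an exon of Elmo3 (chr8:105308364-105308460, minus strand).

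The longest annotated 3′ UTRs of App (5646 bases) and Bace1 (4104 bases) were searched, on the strand of the mRNA, for the 7 bases complementary to each seed. The match nearest the stop codon is shown in the gene each miRNA is reported for, and for miR-186-5p in both, since these are places where the seed could pair. The match is in capitals. They are reference mouse sequence in GRCm38, and the transgenic APP was not searched.
App, miR-101a-3p: ttcatgggttttgtGTACTGTa
App, miR-153-3p: tcttttcctgatcaCTATGCAt
App, miR-186-5p: tgcttctcctacgtATTCTTTt
Bace1, miR-298-5p: gcttcagccctgacCCTCTGCc
Bace1, miR-186-5p: ctccaacctaaagtATTCTTTa
Bace1, miR-339-5p: tccactgtattctaGACAGGGa
The App match of miR-101a-3p (chr16:84955070-84955076, minus strand) begins at base 255 of the 3′ UTR, is present in all 6 annotated App transcripts with a 3′ UTR, and overlaps a TACTGTA match of miR-101b-3p that begins 1 base later. GTACTGT was found 2 times in App and TACTGTA 2 times, and neither was found in Bace1. The second GTACTGT, at base 4848, was present in 1 of those 6 transcripts. CTATGCA, for miR-153-3p, was found once in App at base 476 and not in Bace1. The Bace1 matches of miR-298-5p, CCTCTGC, began at bases 292 and 1095 of that 3′ UTR, and App had none.

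The other seeds did not separate the 2 genes. ATTCTTT, for miR-186-5p, was found 2 times in App and 2 times in Bace1, and GACAGGG, for miR-339-5p, once in each. GACAGGG was present in 1 of the 6 App transcripts and in 1 of the 3 Bace1 transcripts. Such matches are common: over the longest 3′ UTR of each of 20997 genes, the share that held the match was 9.4% for miR-101a-3p, 12.2% for miR-101b-3p, 8% for miR-153-3p, 20.3% for miR-298-5p, 19.5% for miR-186-5p and 12.4% for miR-339-5p. Among the 970 genes with a 3′ UTR of a length like that of App, 32.4% held the match of miR-101a-3p and 29.4% that of miR-153-3p. The share was 39.8% for miR-101b-3p, 59.9% for miR-186-5p and 37.5% for miR-339-5p. Among the 1933 genes like Bace1 in length, 45.4% held that of miR-298-5p, 48.5% that of miR-186-5p and 30.6% that of miR-339-5p. A match is a description of letters and not a measured site.

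The libraries held between 19048747 and 26085776 miRNA reads, so that 3 reads amount to between 0.115 and 0.157 RPM, and counting error is small for all but miR-339-5p. miRNAs that define neurons and glia were abundant, with miR-124-3p, the main miRNA of neurons, at between 7183 and 10834 RPM. The list of 10 miRNAs of blood, immune, vessel, liver and muscle cells had none at 0 and summed to 4950 and 5680 RPM in the WT mice and to 4478 and 5142 RPM in the AD mice. Most of each sum was miR-486-5p alone, at 3900 (WT1), 4417 (WT2), 3881 (APP3) and 3053 RPM (APP4). The lowest of the list, miR-206-3p, was at between 0.226 and 0.517 RPM. APP4 stood apart: 8 miRNAs of the miR-200 and miR-183 clusters, which mark epithelial and sensory cells, summed to 5862 RPM there and to between 576 and 1024 RPM in the other libraries. The genotype log2 fold changes of the 7 are therefore also given without APP4, and the part of these miRNAs in any result was not tested. Scaling the libraries by TMM (edgeR's trimmed mean of log ratios) in place of the read sum moved every log2 fold change of APP4 over WT1 by −0.25, of APP3 over WT2 by −0.02, of WT2 over WT1 by −0.11 and of APP4 over APP3 by −0.13.

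The 7 miRNAs spanned a range of between 258-fold and 320-fold within a library. By mean RPM over the 4 mice their order was miR-186-5p, miR-101a-3p, miR-328-3p, miR-153-3p, miR-101b-3p, miR-298-5p and miR-339-5p. The ranges of neighbours in that order did not overlap, with the exception of miR-153-3p and miR-101b-3p, which changed places between mice: miR-101b-3p was the higher in WT1 and APP4, and miR-153-3p in WT2 and APP3. Levels of different miRNAs also carry the unequal efficiency with which adapters join to each sequence. Summed, the 7 took 0.904% and 0.929% of the miRNA reads in the WT mice and 0.941% and 0.943% in the AD mice. The APP group summed to 4267 RPM (WT1), 3957 RPM (WT2), 4061 RPM (APP3) and 4346 RPM (APP4), and the BACE1 group to 4776, 5337, 5352 and 5087 RPM in the same order, so that the genotypes overlapped in both.

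**Figure D1:**
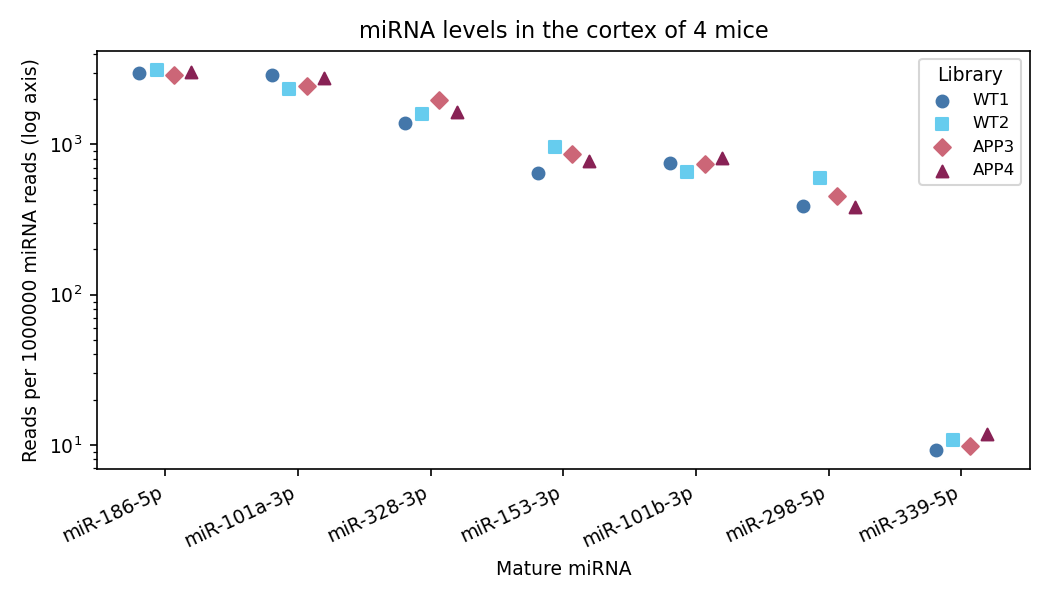
Reads per 1000000 miRNA reads (log axis) of the 7 miRNAs in each of the 4 libraries, 1 point per mouse, ordered by mean level. For 6 of the 7 the AD and WT points overlap, and for miR-328-3p both AD points (1654 and 1970 RPM) are above both WT points (1396 and 1586 RPM).

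Among the miRNAs reported for APP, miR-101a-3p, a conserved miRNA abundant in neurons, was the most abundant. Its level was 2879 RPM (WT1) and 2339 RPM (WT2) in wild-type cortex and 2457 RPM (APP3) and 2764 RPM (APP4) in AD cortex. The 2 extreme values were both WT, with both AD mice between them. The means were 2609 ± 382 RPM in WT and 2610 ± 217 RPM in AD mice (SD, n = 2). The log2 fold change was −0.06 for APP4 over its sibling WT1 and 0.07 for APP3 over WT2, both smaller in size than the −0.30 of WT2 over WT1. With TMM these were −0.31, 0.05 and −0.41. Over the 4 mice the log2 fold change of AD over WT was −0.14 (SE 0.20, 95% interval −0.62 to 0.33, edgeR quasi-likelihood test, adjusted p = 0.967), and −0.18 without APP4. Both a fall and a rise thus lie within the interval. With the read sum in place of TMM the log2 fold change of AD over WT was 0.00067.

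Its close relative miR-101b-3p was at 746 RPM (WT1) and 660 RPM (WT2) in wild-type cortex and 735 RPM (APP3) and 807 RPM (APP4) in AD cortex. APP4 was the highest and WT2 the lowest, while APP3 was below WT1. Each AD mouse exceeded its sibling, with log2 fold changes of 0.11 in the first pair and 0.16 in the second, but with TMM the first became −0.14. Over the 4 mice its log2 fold change was −0.01 (SE 0.19, 95% interval −0.46 to 0.44, edgeR adjusted p = 0.9999), and −0.02 without APP4.

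Since reads of the miR-101 family may be split wrongly, the sum was also followed. miR-101a-3p and miR-101b-3p together were at 3626 RPM (WT1) and 2999 RPM (WT2) in wild-type cortex and 3192 RPM (APP3) and 3571 RPM (APP4) in AD cortex, again with both AD mice between the WT mice. Of the reads of all 3 family members, miR-101a-3p took 75.0%, 74.0%, 73.4% and 74.1% and miR-101b-3p 19.4%, 20.9%, 22.0% and 21.6% in that order. The share of miR-101b-3p was thus higher in both AD mice than in both WT mice, though its level in RPM overlapped between the genotypes. In RPM the groups did not overlap for 36% of the 623 miRNAs tested. miR-101c took 5.55% and 5.16% in the WT mice and 4.61% and 4.27% in the AD mice. The 95% Wilson intervals of these shares cover counting error only. Those of miR-101c did not overlap between the genotypes, nor between the 2 mice of either genotype. For miR-101b-3p those of APP3 (21.7 to 22.3%) and APP4 (21.3 to 21.9%) overlapped. For miR-101a-3p that of WT2 (73.6 to 74.3%) overlapped those of both AD mice. Intervals of this kind cannot separate genotype from the spread between mice. The level of miR-101c was 213, 163, 154 and 159 RPM, below both WT mice in both AD mice, as were 8.99% of the 623 miRNAs tested. Its log2 fold change of AD over WT was −0.41 (95% interval −0.95 to 0.14, edgeR adjusted p = 0.929), and −0.38 without APP4.

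miR-153-3p, an miRNA of neurons and neuroendocrine cells, was at 641 RPM (WT1) and 958 RPM (WT2) in wild-type cortex and 869 RPM (APP3) and 775 RPM (APP4) in AD cortex. Both extremes were WT mice here too, and the means were 800 ± 224 RPM in WT and 822 ± 66.8 RPM in AD mice (SD, n = 2). The sibling pairs went opposite ways, with log2 fold changes of 0.27 in APP4 over WT1 and −0.14 in APP3 over WT2, and the largest difference was between the WT mice, at 0.58. With TMM these were 0.02, −0.16 and 0.47. AD over WT gave a log2 fold change of −0.08 (SE 0.23, 95% interval −0.62 to 0.46, edgeR adjusted p = 0.986), and 0.05 without APP4. With the read sum in place of TMM the value was 0.04. The order of the 4 libraries was also that of 2 of the 5 neural miRNAs, miR-124-3p (7183, 10834, 8556 and 8369 RPM) and miR-338-3p. It was also that of 2 of the 10 miRNAs of other cells, the erythroid miR-451a (91.4, 200, 159 and 146 RPM) and miR-144-3p. Such a match was not particular to miR-153-3p: miR-101a-3p shared the order of miR-9-5p, and miR-101b-3p that of miR-219-2-3p. The remaining members shared the order of no listed marker. How many of all miRNAs have each order was not counted, and the part of any marker in these levels was not tested. miR-448-3p, which shares bases 2 to 7 with miR-153-3p, was at between 18.6 and 20.2 RPM in all 4 mice.

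Among the miRNAs reported for BACE1, miR-298-5p varied most between mice. It was at 386 RPM (WT1) and 601 RPM (WT2) in wild-type cortex and 456 RPM (APP3) and 382 RPM (APP4) in AD cortex. WT2 stood above the other 3, and WT1 and APP4, which are siblings, were nearly level in RPM. The means were 494 ± 152 RPM in WT and 419 ± 52.5 RPM in AD mice (SD, n = 2). Scaled to the miRNA reads, APP4 over WT1 gave a log2 fold change of −0.02 (SE from counting 0.02, Fisher's exact test, FDR 0.579), and with TMM it gave −0.27 (FDR 8.89e-34). APP3 was below WT2 by 0.40 on the log2 scale (−0.40, FDR 3.62e-95). The genotype log2 fold change was −0.36, the largest in size of the 7, with a 95% interval of −0.95 to 0.23 (SE 0.25, edgeR adjusted p = 0.929). It was −0.61 without WT1, −0.03 without WT2, −0.56 without APP3 and −0.19 without APP4, and the lowest adjusted p of these was 0.812.

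The neighbouring hairpin, Mir296, did not run in step with Mir298. miR-296-5p was at 10.7 RPM (WT1) and 14.1 RPM (WT2) in wild-type cortex and 19.2 RPM (APP3) and 12.3 RPM (APP4) in AD cortex, and was highest in APP3. There were between 23.8 and 42.5 reads of miR-298-5p for each read of miR-296-5p, the lowest ratio in APP3 and the highest in WT2.

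miR-328-3p was the one member with both AD mice above both WT mice in RPM, as were 27% of the 623 miRNAs tested. It was at 1396 RPM (WT1) and 1586 RPM (WT2) in wild-type cortex and 1970 RPM (APP3) and 1654 RPM (APP4) in AD cortex. APP4 was closer to WT2 than to APP3, and the means were 1491 ± 134 RPM in WT and 1812 ± 223 RPM in AD mice (SD, n = 2). In the sibling pairs it was 0.25 and 0.31 higher on the log2 scale in the AD mouse, that is 1.19-fold and 1.24-fold, under the 1.5-fold limit. With TMM the first pair gave −0.01 and the groups overlapped, at 1517 and 1603 RPM over the TMM factor in WT and 1967 and 1508 in AD mice. On that scale 14.9% of the miRNAs tested had both AD mice above both WT mice. The genotype log2 fold change was 0.16 (SE 0.20, 95% interval −0.31 to 0.62, edgeR adjusted p = 0.958). It was 0.32 without APP4 and −0.05 without APP3.

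miR-186-5p varied least of the 7 in RPM. Its level was 2984 RPM (WT1) and 3139 RPM (WT2) in wild-type cortex and 2916 RPM (APP3) and 3039 RPM (APP4) in AD cortex, and the groups overlapped. Its highest level was 1.08 times its lowest, or 1.17 times with TMM, on which scale miR-339-5p varied less (1.11 times). In RPM only 2 of the 252 miRNAs that averaged 50 RPM or more varied less. The log2 fold change was 0.03 in the first pair and −0.11 in the second, and with TMM the first became −0.23. On that scale both AD mice (2911 and 2771) were below both WT mice (3244 and 3172), as were 19.1% of the miRNAs tested. Across genotypes its log2 fold change was −0.18 (SE 0.17, 95% interval −0.58 to 0.23, edgeR adjusted p = 0.958), and −0.15 without APP4.

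miR-339-5p was the scarcest, with 243 (WT1) and 238 (WT2) reads in wild-type cortex and 210 (APP3) and 224 (APP4) in AD cortex. These amount to 9.32, 10.8, 9.87 and 11.8 RPM, and the genotypes overlapped. At this depth the SE from counting was about 0.13 on the log2 scale, far above that of the other 6. APP4 exceeded WT1 by 0.34 (Fisher's exact test, FDR 0.033, under the 1.5-fold limit), and APP3 over WT2 gave −0.13 (FDR 0.596). With TMM the first became 0.08 (FDR 0.726). By genotype the log2 fold change was −0.03 (SE 0.19, 95% interval −0.47 to 0.41, edgeR adjusted p = 0.995), and −0.10 without APP4.

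The hairpin of miR-339 was also the one with no clear main arm. Of the reads of both arms, miR-339-5p took 45.9% (41.7 to 50.2, 95% Wilson) and 40.7% (36.8 to 44.7) in the mice WT1 and WT2. It took 32.9% (29.3 to 36.6) and 41.4% (37.3 to 45.6) in APP3 and APP4. APP3 was lowest, the genotypes did not separate since APP4 lay between the WT mice, and the means were 43.3% ± 3.71 in WT and 37.1% ± 6.04 in AD mice (SD, n = 2). The other arm is shown because it outnumbered the one reported for BACE1.
miR-339-3p: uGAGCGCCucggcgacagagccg
Its level was 10.96 RPM (WT1) and 15.7 RPM (WT2) in wild-type cortex and 20.2 RPM (APP3) and 16.6 RPM (APP4) in AD cortex. Both AD mice were above both WT mice, as were 27% of the 623 miRNAs tested, though not after scaling by TMM. In the first pair, where 11.6% of all miRNAs were called, miR-339-3p was called (log2 fold change 0.60, 1.52-fold, Fisher's exact test, FDR 1.42e-06). In the second it was below the limit (0.36, 1.28-fold). With TMM the first pair gave 0.35, which is under the limit. The genotype log2 fold change of miR-339-3p was 0.35 (SE 0.24, 95% interval −0.23 to 0.92, edgeR adjusted p = 0.929), and 0.52 without APP4.

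In the other 6 hairpins the arm counted here held between 99.7% and 100% of the reads in each library. Their other arms had few reads: miR-101b-5p had 1, 0, 1 and 0, and miR-153-5p 4, 1, 1 and 1, in WT1, WT2, APP3 and APP4. Of the 228 hairpins with both arms listed and at least 100 reads in each library, 81 (35.5%) had a main arm above 99% of reads and 10 (4.39%) one below 60%. The intervals cover counting error only, since reads without molecular identifiers are not independent molecules.

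**Figure D2:**
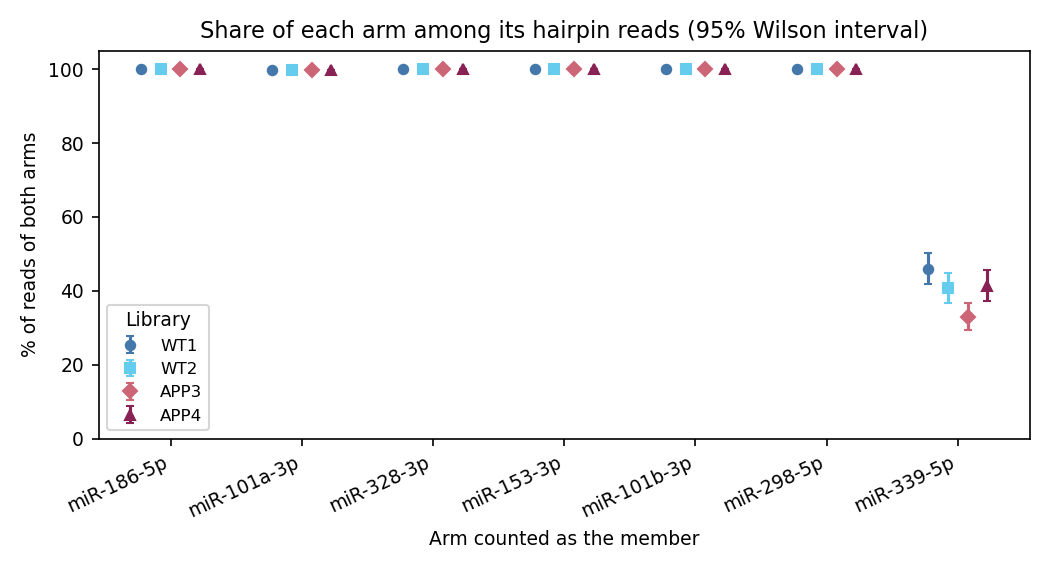
Share (%) of the reads of both arms of a hairpin that came from the arm named, in each of the 4 libraries, with 95% Wilson intervals. The 6 arms other than miR-339-5p stand near 100% in every mouse, and miR-339-5p stands between 32.9% and 45.9%.

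The sibling pairs ask whether the miRNA differed between an AD mouse and its WT sibling. By Fisher's exact test on reads, where a call needs both a 1.5-fold difference and an FDR under 0.05, 0 of the 7 were called in APP4 against WT1, where 11.6% of 899 miRNAs were called, and 0 of the 7 in APP3 against WT2, where 6.81% of 896 were called. At this depth the FDR alone separates little, since 6 of the 7 were under 0.05 in each pair, as were 40.3% and 36.0% of all miRNAs. With TMM 4 of the 7 were under it in the first pair and 6 in the second. With 2 libraries the test compares those mice and not the genotypes.

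The 2 mice of one genotype were compared in the same way, as a measure of the spread between mice. Between WT1 and WT2, where 10.1% of 879 miRNAs were called, 1 of the 7 was called: miR-298-5p, at 1.56-fold (log2 fold change 0.64, FDR 4.08e-247). With TMM that difference was 0.53 and under the limit. Between APP3 and APP4, where 8.05% of 907 were called, 0 of the 7 were called. The median size of the log2 fold change of the 7 was 0.11 and 0.14 in the sibling pairs and 0.21 (WT) and 0.17 (AD) between mice of one genotype, beside 0.26, 0.19, 0.24 and 0.23 over the 252 miRNAs of at least 50 RPM. The 0.21 is the value of miR-339-5p, which is below 50 RPM and not among the 252. The 4 comparisons share libraries, so that these medians are not independent.

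**Figure D3:**
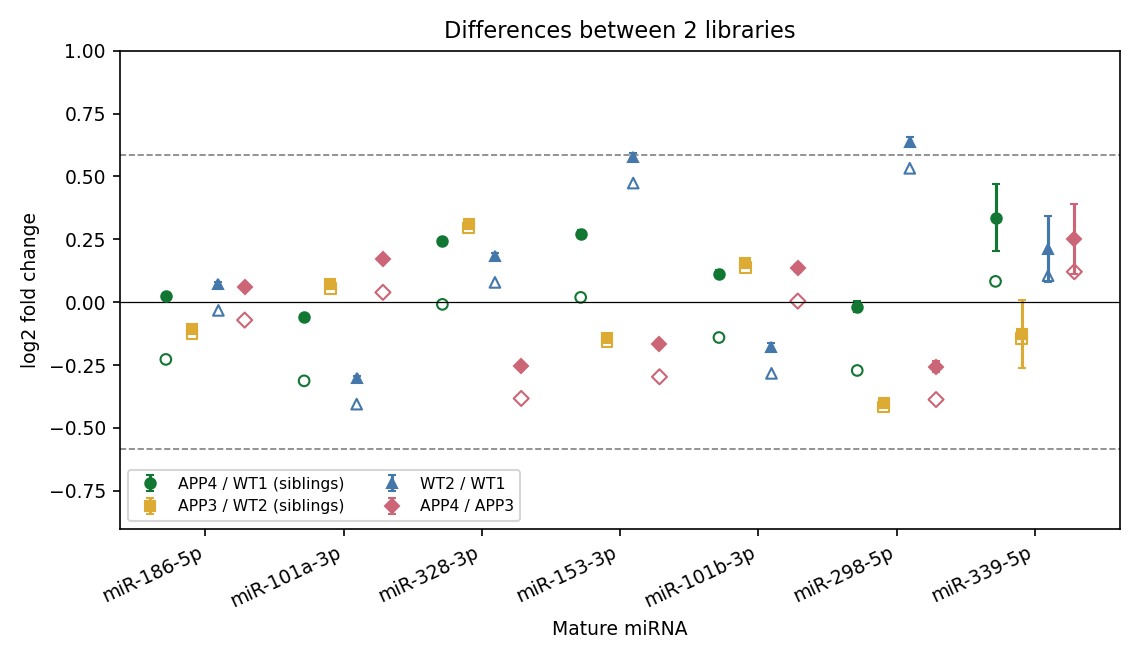
Log2 fold change of the 7 miRNAs in the 2 sibling pairs (AD over WT) and between the 2 mice of each genotype. Filled points are scaled to the miRNA reads, with bars for the SE from counting, open points are scaled by TMM, and dashed lines mark 1.5-fold. Only miR-298-5p between the WT mice (0.64) lies past a dashed line, and its open point (0.53) does not.

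Over the 4 mice, the edgeR test called 0 of the 7 and 0% of the 623 miRNAs tested at an adjusted p under 0.05. At an unadjusted p under 0.05 it called 0 of the 7 and 36 of all (5.78%), and DESeq2 called 0 at an adjusted and 28 at an unadjusted p. A block for the sibling pairs let 2 miRNAs pass, miR-100-5p and miR-409-5p, and the lowest adjusted p among the 7 was 0.873. Over all miRNAs 21 passed without APP3, 5 without APP4, 3 without WT1 and 0 without WT2, and 0 of the 7 were among them. The 7 had 1 positive and 6 negative log2 fold changes and a median of −0.08, beside 291 positive, 332 negative and a median of −0.02 over all tested. With the read sum in place of TMM 5 of the 7 were positive, so that no common direction can be given. The groups of 2 did not overlap in RPM for 1 of the 7, miR-328-3p, and for 36% of all. The upper and lower 95% bounds of the 7 ran from −0.95 to 0.62, and a change of 1.5-fold lay within the interval as a fall for miR-298-5p, miR-101a-3p and miR-153-3p, and as a rise for miR-328-3p.

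**Figure D4:**
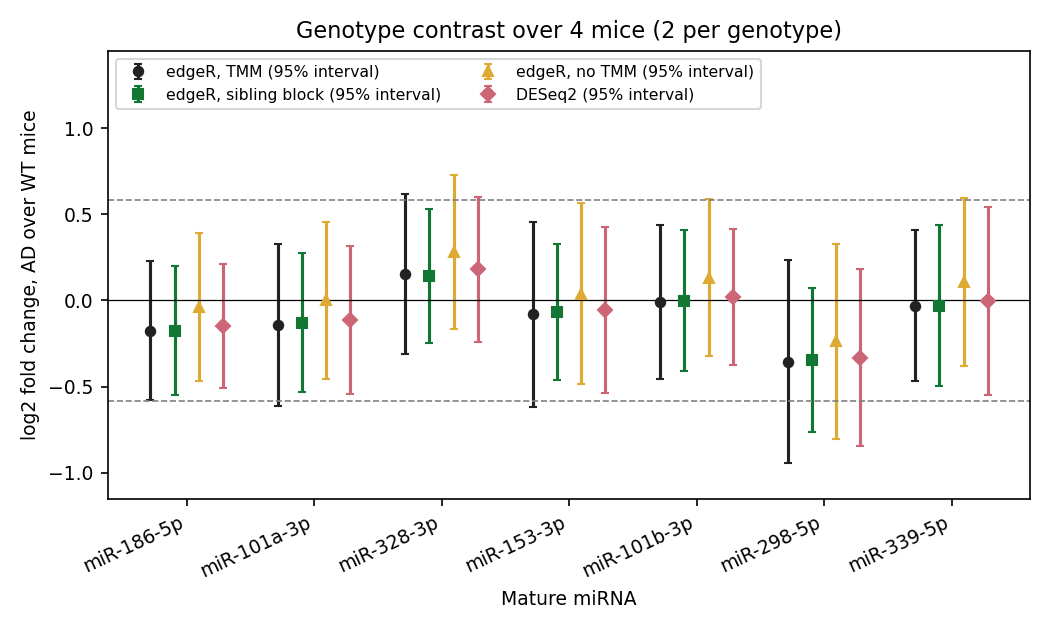
Log2 fold change of AD over WT mice (2 per genotype) for the 7 miRNAs with 95% intervals, by edgeR with TMM, with the sibling pair as a block, without TMM, and by DESeq2. Dashed lines mark 1.5-fold. Every interval includes 0, and without TMM the points stand higher.

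The spread over mice can be set beside that of other miRNAs. In RPM the highest level was between 1.08 and 1.58 times the lowest for the 7, with a median of 1.26, beside a median of 1.37 over the 252 miRNAs of at least 50 RPM. The 1.26 is the value of miR-339-5p, which is below 50 RPM and not among the 252. miR-101a-3p (1.23) and miR-101b-3p (1.22) were among the steadier, with 46 and 43 of the 252 below them. miR-298-5p (1.58) had 202 below it and miR-153-3p (1.49) had 176.

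For each member, the other miRNA whose centred log2 RPM over the 4 libraries was nearest was named. These were miR-21a-5p for miR-101a-3p (Euclidean distance 0.03), miR-341-3p for miR-101b-3p (0.06), miR-674-3p for miR-153-3p (0.14), miR-145a-3p for miR-298-5p (0.07), miR-150-5p for miR-328-3p (0.13) and miR-322-5p for miR-186-5p (0.08). miR-21a-5p, for example, was at 2027, 1610, 1716 and 1952 RPM in WT1, WT2, APP3 and APP4. With 252 miRNAs and 4 libraries some pattern lies near any other, and miR-339-5p was below the 50 RPM limit.

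Other miRNAs reported for the same targets were taken as a list of 13, which holds members of the miR-17 family, miR-16-5p and miR-147-3p for APP, and the miR-29 family, miR-9-5p, miR-107-3p, miR-124-3p and miR-195a-5p for BACE1 or for the splicing of APP. Of these, 12 passed the filter and 0 had an adjusted or an unadjusted p under 0.05 by edgeR, with 9 positive and 3 negative log2 fold changes and a median of 0.10. Without APP4, 7 were positive and 5 negative, again with 0 at an adjusted or an unadjusted p under 0.05. In APP4 against WT1, where 11.6% of all miRNAs were called, 2 of the 13 were called, miR-106b-5p (log2 fold change 0.63) and miR-29c-3p (0.59), and 12 of the 13 were positive, or 8 with TMM. In APP3 against WT2, 0 of the 13 were called and 9 were positive, with −0.07 for miR-106b-5p and 0.18 for miR-29c-3p. With TMM the first pair gave 0.37 and 0.34, under the limit.

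miR-29c-3p, of a family that is abundant in mature neurons and glia, was at 683 RPM (WT1) and 894 RPM (WT2) in wild-type cortex and 1014 RPM (APP3) and 1029 RPM (APP4) in AD cortex. Both AD mice were above both WT mice, and the difference between the WT mice (0.39) was above that of the second pair. Its genotype log2 fold change was 0.25 (SE 0.19, 95% interval −0.20 to 0.69, edgeR adjusted p = 0.958), and 0.29 without APP4. Of the 12 tested, 6 had groups that did not overlap in RPM, as had 36% of all miRNAs tested. With TMM it was 4 of the 12, beside 212 of the 623. Between the WT mice 1 of 12 was called, miR-124-3p (0.59), and between the AD mice 0 of 13.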

How the data were processed

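Small RNA of the cortex of 4 mice was sequenced. The authors trimmed adapters, discarded reads of low quality and deposited unnormalized counts for 942 mature miRNAs of miRBase. A second set of columns that the authors deposited, called TPM, holds RPM (counts per 1000000 clean reads) and served only to check the totals. The submitters' notes name CASAVA 1.8 and mm9, while the study's methods name GRCm38, and the extraction kit also differs between them. RPM here are per 1000000 of each library's miRNA counts (between 19048747 and 26085776).

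Libraries were compared 2 at a time by Fisher's exact test (two-sided, scipy 1.17.1), with the FDR by Benjamini-Hochberg over miRNAs with at least 1 read and 0.5 read added for log2 fold changes. Genotypes were compared by the quasi-likelihood test of edgeR 4.0.16 (R 4.3.3) after filterByExpr and TMM, with Benjamini-Hochberg adjustment. DESeq2 1.42.0, the sibling pair as a block, other scalings, filters and limits, and leaving out each mouse were the alternatives. The pairs come from the study's methods. Deviations of siblings from their group means correlated at r = 0.23 over 252 miRNAs, 1 value for both pairs by construction. No 2 libraries agreed within sampling noise. The members and lists were chosen with earlier results of these data known. The miRNAs named were the members, their other arms, hairpin neighbours and seed relatives, the list of 13 by counts, and the nearest pattern of each member.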

Additional observations from a re-analysis of the deposited data

Results flagged for a closer look

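For 4 of the 7 miRNAs the sibling pairs gave log2 fold changes (AD over WT) of opposite sign, in APP4 against WT1 and in APP3 against WT2. They were −0.0591 and 0.0710 for miR-101a-3p, 0.273 and −0.140 for miR-153-3p, 0.0262 and −0.106 for miR-186-5p, and 0.336 and −0.126 for miR-339-5p. With TMM the signs were opposite for 5 of the 7: miR-186-5p left the set, and miR-101b-3p (−0.14 and 0.14) and miR-328-3p (−0.01 and 0.30) entered it. Each pair is 1 mouse against 1 mouse, so whether the pairs differ was not tested. Opposite signs were also found for 115 of the 252 miRNAs of at least 50 RPM (45.6%).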

How the results depend on the processing

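The count of members with an adjusted p under 0.05 stayed at 0 in every alternative of the genotype test, and the lowest adjusted p of a member was 0.812. Over all miRNAs the count was 0, and 2 with the sibling pair as a replicate block, and it ran from 0 to 21 when each mouse was left out (3 without WT1, 0 without WT2, 21 without APP3, 5 without APP4), where the lone mouse of a genotype is assumed to vary like the others. The block changed no other call. The genotype log2 fold change turned to 0.00067 for miR-101a-3p, 0.13 for miR-101b-3p, 0.0397 for miR-153-3p and 0.11 for miR-339-5p without TMM. For miR-101b-3p it was 0.0247 with no filter and 0.0199 by DESeq2, and for miR-339-5p 0.0027 with miR-101a-3p and miR-101b-3p summed. With each mouse left out it ran from −0.30 to 0.0643 for miR-101a-3p, −0.11 to 0.13 for miR-101b-3p, −0.31 to 0.21 for miR-153-3p, −0.61 to −0.03 for miR-298-5p, −0.0481 to 0.32 for miR-328-3p and −0.10 to 0.0594 for miR-339-5p. With TMM, Fisher's test of APP4 against WT1 gave −0.14 for miR-101b-3p, −0.0085 for miR-328-3p and −0.23 for miR-186-5p, and miR-186-5p was at −0.0325 for WT2 over WT1 and −0.0711 for APP4 over APP3. The member called between the WT mice was lost with TMM (0) and at 2-fold (0). At 2-fold, by Bonferroni and with at least 10 RPM, the miRNAs called were 50, 65 and 53 in the first pair, 23, 34 and 30 in the second, 38, 51 and 40 in WT2 against WT1, and 38, 47 and 40 in APP4 against APP3, limits that by construction leave fewer. TMM also moved the FDR of members across 0.05 without a change of call: in APP4 against WT1 to 0.413 for miR-153-3p, 0.650 for miR-328-3p, 0.726 for miR-339-5p and 8.89e-34 for miR-298-5p (from 0.579), and in APP4 against APP3 to 0.928 for miR-101b-3p. The other values kept their direction and their call. With 2 mice per genotype, the edgeR intervals rest on a spread between mice that is estimated in part over all miRNAs tested. Their width is thus not the spread of each member alone. The SE of miR-339-5p (0.19) was not above that of miR-101a-3p (0.20), though its error from counting was larger. Sign changes with TMM come from the shift in scale alone, and the cause of that shift was not tested.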
